A study of Mus musculus with 10 samples.

Results

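LSD1-knockout marginal zone B cells (MZB) were compared with wild-type MZB across all 9690 genes of an RNA-sequencing table, in 5 of its 10 libraries. Both groups were unstimulated splenic B cells, taken from female C57BL/6J mice and labelled knockout (2 libraries) or wild-type (3 libraries) for LSD1. The sort took B220+ cells that were CD21 high and CD1d+ but lacked CD23, and excluded any with Thy1.1, F4/80, CD11b, CD93 or GL7. The other 5 libraries hold follicular B cells (FoB; 3 knockout, 2 wild-type), sorted from the same kind of mice with CD23, intermediate CD21 and no CD1d, and serve here only to show where the response of MZB differed. The labels do not give the allele, the deleted exons, any Cre driver, the age of the mice, or whether each library is a separate animal. P-values therefore reflect spread among these libraries, part of which could be technical.

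LSD1, the product of Kdm1a, is a flavin-dependent demethylase that removes methyl groups from lysine 4 of histone H3. It works largely in the CoREST complex with histone deacetylases, and DNA-binding repressors such as GFI1 bring it to promoters and enhancers. MZB are innate-like B cells that stay at the blood-facing rim of the splenic white pulp, held there by integrins and by sphingosine-1-phosphate receptors. They respond quickly to blood-borne antigens and depend on NOTCH2 signals.

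Each library was made from 50000 cells, and its values were deposited as mRNA per cell. The 5 MZB libraries held 5375255 to 6711847 recovered reads, and the median gene had 255 to 319. The log values of libraries of the same MZB group correlated across genes with Pearson coefficients of 0.985 to 0.989, and no library repeated another. The labelled cell type was checked against its markers in the wild-type libraries. Cr2, which encodes the CD21 of the sort, stood at 271 ± 24.2 mRNA per cell in MZB (SD, n = 3) and 38.8 ± 8.82 in FoB (SD, n = 2), and S1pr3 at 22.1 ± 3.31 and 0.451 ± 0.0981. Cd1d1 stood at 62.8 ± 10.3 in MZB and 4.06 ± 0.297 in FoB, while Fcer2a, which encodes CD23, stood at 13.3 ± 3.85 and 93.7 ± 18.9. These are bulk values, in which a change in the mix of cells and a change in RNA per cell cannot be told apart.

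Kdm1a (chr4:136550533-136602787 on mm10; it overlaps Luzp1) stood at 5.38 and 5.94 mRNA per cell in the knockout libraries and 6.37, 8.37 and 7.90 in the wild-type libraries. Every knockout library lay below every wild-type library. The per-cell log2 change of −0.39 ± 0.19 (SE) did not pass (limma adjusted p = 0.118), whereas the rescaled change of −0.69 ± 0.06 did (limma adjusted p = 0.000463). The transcript was thus still present in the cells labelled knockout, and the sources used here do not give whether its reads lie in the deleted part.

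The total mRNA per cell was 105590 and 121071 in the knockout and 74815, 99800 and 92253 in the wild-type libraries, without overlap. The ratio of the means was 1.27, with an exact two-sided permutation p of 0.2, the smallest p of that test with 2 and 3 libraries being 0.1. Results are given on 2 scales, the deposited per-cell values and values rescaled by a factor per library, so that genes are read against the bulk of their library. All log2 changes are on the log2(value + 0.3) scale, which understates the change of low genes, and errors given with them are SE. The median gene was 0.32 higher in knockout MZB on the per-cell log2 scale and 0.02 higher after rescaling. Per cell, limma called 1288 genes higher (13.3% of all genes) and 68 lower (0.702%), or 14% in either direction. After rescaling, 326 genes were higher (3.36%) and 184 lower (1.9%), or 5.26% in all. These shares are the background for the counts of list members given below. Higher calls made up 95% of all calls per cell and 63.9% after rescaling. Of the rescaled calls, all 326 higher ones and 46 of the lower ones were also called per cell in the same direction. Knockout and wild-type libraries did not overlap at all for 58.9% of genes per cell and for 45.6% after rescaling, so absence of overlap is common here and by itself marks no gene. The number of rescaled calls was 510 with all libraries, 146 without knockout library 1 and 61 without knockout library 2. It was 191, 266 and 254 without wild-type library 1, 2 and 3. Of the 61 genes called without knockout library 2, 60 were among the 510. For 112 genes called after rescaling and chosen as described under processing, the call was followed through the alternatives, and most lost it without that library. The 25 that kept it under each alternative run for them were Kdm1a, Ly6c2, Alox5ap, Itgb7, Ifit1bl1, Ehd2, Fcer2a, Ptms, Lgals1, Rgs18, AF357399, Tsga13, Ifi27, Pnrc2, Itgam, Itgb3, Flt3, Il2ra, Cecr2, Klf2, Map3k19, Spn, Scimp, Csrp1 and Fuca1. Each of the others among the 112 lost its call under at least 1 alternative. Some calls named below, such as Dusp4, Atp1b1, Bcl11a, Pik3r4, Cd55 and Ptpn22, were not among the 112 and were not followed singly.

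**Figure D1:**
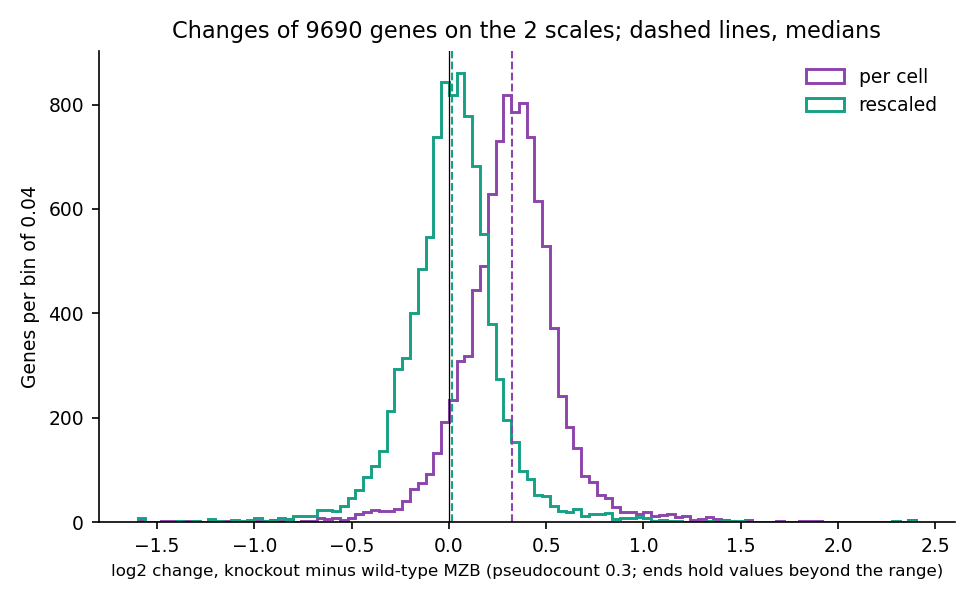
Number of genes (y axis, bins of 0.04) by log2 change between knockout and wild-type MZB (x axis, mean of 2 knockout minus mean of 3 wild-type libraries, pseudocount 0.3) on the per-cell scale and after rescaling. The dashed medians stand at 0.32 and 0.02, and the per-cell curve lies to the right of the rescaled one.

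Most rescaled changes were of modest size, with a median log2 change of 0.52 among the higher calls and −0.55 among the lower ones. A change of more than 2-fold was seen for 32 of the higher and 27 of the lower calls. The genes called higher were expressed at a median of 2.86 mRNA per cell in wild-type MZB and those called lower at 6.71. Of the 675 genes under 1 mRNA per cell in wild-type MZB, 12.4% were called higher and 0.296% lower. Between 1 and 3 mRNA per cell, 2.94% of 2957 genes were higher and 1.45% lower. Between 10 and 30 mRNA per cell the shares were nearly equal, with 3.20% of 1468 genes higher and 3.41% lower. At 30 to 100 mRNA per cell, 1.93% of 311 genes were higher and 3.54% lower. The sources used here do not give how the table's genes were chosen, and the part of that choice in the high share among the scarcest genes was not tested. Scarce members of the gene lists below may be in the table only through groups where they are higher. Counts and medians that include such members are no support for a list.

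**Figure D2:**
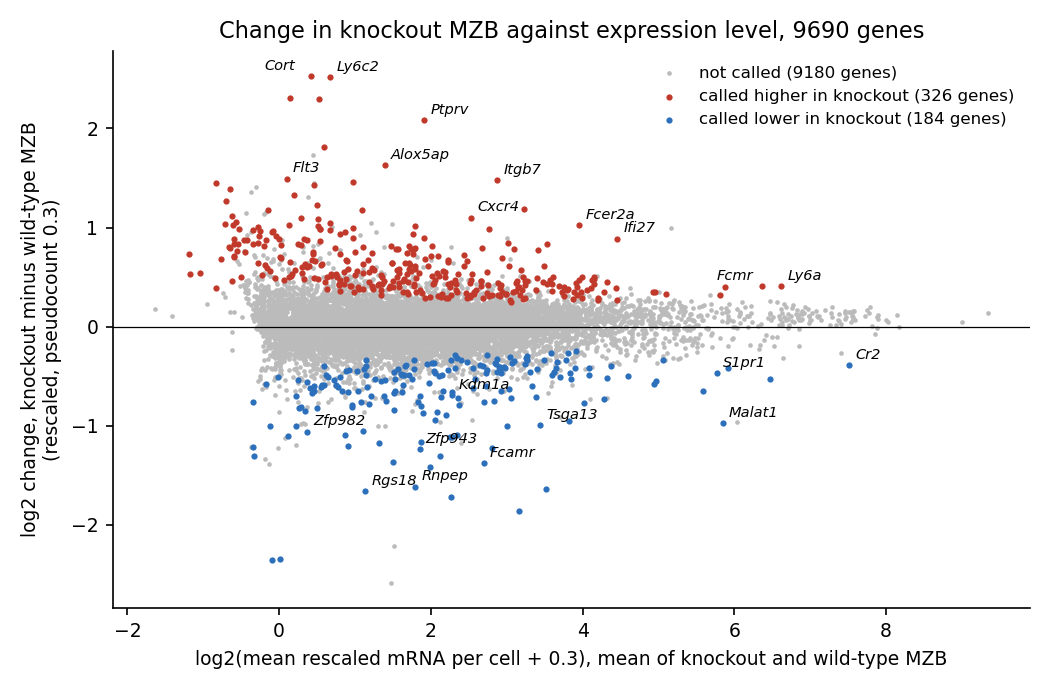
Rescaled log2 change in knockout MZB (y axis) against expression level (x axis, log2 of the mean rescaled mRNA per cell plus 0.3) for 9690 genes. Red points mark the 326 genes called higher, blue points the 184 called lower (limma adjusted p under 0.05) and grey points the rest. The red points are densest at the low end of the axis and the blue points run further to the right.

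The promoters of Oas1a, Ifit1bl1 and Tgtp2, genes that interferon is known to induce, are shown because each gene rose and each promoter holds the core of the interferon-stimulated response element. Oas1a and Tgtp2 were chosen after their values were seen, and no count over interferon-induced genes was made. The sequences are RefSeq promoters of GRCm38.p6, from 250 bases before to 50 bases after the gene start, on the minus strand that carries each gene, with matches to GAAANNGAA on either strand in capitals. Oas1a is at chr5:120907476-120907775, Ifit1bl1 at chr19:34599378-34599677 (1 of 2 RefSeq starts) and Tgtp2 at chr11:49064163-49064462.
Oas1a: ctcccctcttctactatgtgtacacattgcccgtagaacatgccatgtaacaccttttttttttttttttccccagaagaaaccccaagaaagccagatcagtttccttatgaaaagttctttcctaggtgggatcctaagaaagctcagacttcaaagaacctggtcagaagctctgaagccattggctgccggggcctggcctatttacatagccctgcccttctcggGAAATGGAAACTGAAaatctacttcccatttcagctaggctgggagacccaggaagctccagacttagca
Ifit1bl1: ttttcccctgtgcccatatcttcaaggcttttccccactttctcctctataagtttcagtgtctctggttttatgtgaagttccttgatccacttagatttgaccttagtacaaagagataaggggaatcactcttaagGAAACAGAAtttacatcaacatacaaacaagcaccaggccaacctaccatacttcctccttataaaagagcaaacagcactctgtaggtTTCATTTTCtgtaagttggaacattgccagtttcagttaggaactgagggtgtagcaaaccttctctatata
Tgtp2: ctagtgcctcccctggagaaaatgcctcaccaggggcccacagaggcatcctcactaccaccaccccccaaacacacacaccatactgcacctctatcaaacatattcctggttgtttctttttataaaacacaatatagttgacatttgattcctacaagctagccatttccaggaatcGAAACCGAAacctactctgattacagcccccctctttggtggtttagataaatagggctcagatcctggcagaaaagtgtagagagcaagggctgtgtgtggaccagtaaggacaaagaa
The 2 matches of Oas1a overlap each other and begin 20 and 14 bases before the start, those of Ifit1bl1 begin 111 and 22 bases before it, and that of Tgtp2 begins 70 bases before it.

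Oas1a, whose product makes the activator of ribonuclease L, stood at 5.57 and 7.43 mRNA per cell in the knockout libraries and 2.23, 2.99 and 3.30 in the wild-type libraries. Its rescaled log2 change was 0.79 ± 0.12 (SE; limma adjusted p = 0.00511). Tgtp2, a T cell-specific guanosine triphosphatase induced by interferon, stood at 4.75 and 6.04 mRNA per cell in the knockout libraries and 1.76, 2.36 and 2.75 in the wild-type libraries, a rescaled log2 change of 0.81 ± 0.12 (limma adjusted p = 0.00484). Both genes had every knockout library above every wild-type library. Ifit1bl1, an antiviral gene of the IFIT family that overlaps Ifit1 and Ifit3b, stood at 3.81 and 4.69 mRNA per cell in the knockout libraries and 0.728, 1.52 and 0.822 in the wild-type libraries, so its reads are partly uncertain. Ifi27, an interferon-inducible membrane protein gene, was the most abundant of these, at 41.7 and 51.4 mRNA per cell in the knockout libraries and 15.8, 22.0 and 22.1 in the wild-type libraries (0.89 ± 0.08 rescaled, limma adjusted p = 0.000463). Pml, which encodes the scaffold of nuclear bodies and is itself induced by interferon, stood at 29.8 and 36.5 mRNA per cell in the knockout libraries and 16.1, 22.1 and 18.9 in the wild-type libraries (0.47 ± 0.08 rescaled, limma adjusted p = 0.00715). The rescaled calls of Ifit1bl1 and Ifi27 were kept without any one MZB library. Those of Oas1a, Tgtp2 and Pml were lost without knockout library 2 (limma adjusted p = 0.0894, 0.0786 and 0.116).

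A promoter was found for 7753 of the 9690 genes, for 256 of the 326 higher ones and 139 of the 184 lower ones. The element GAAANNGAA occurred on either strand in 11.7% of promoters of higher genes, 9.35% of lower genes and 8.84% of all genes. AAATCA, the core bound by GFI1 proteins, occurred in 12.9%, 7.91% and 9.75%. TGTGGTT, a RUNX site, occurred in 7.03%, 3.6% and 4.49%, and GAGGAAGT, a PU.1 site, in 5.86%, 2.88% and 3.96%. The AP-1 site TGANTCA was in 5.08%, 4.32% and 5.48%, the KLF site CCACACCC in 4.69%, 4.32% and 4.49%, and the NF-kB site GGGANTTTC in 1.95%, 1.44% and 1.14%. Matches of different motifs may overlap, these shares were not tested, and a match is no evidence of binding.

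Receptors that place B cells in the spleen moved in both directions. Of 26 chemokine, sphingosine-1-phosphate and lipid receptors measured, 8 rose and 1 fell per cell, beside 13.3% and 0.702% of all genes. After rescaling 3 rose and 4 fell, beside 3.36% and 1.9%. The rescaled median of the list was 0.07 against 0.02 for all genes. Cxcr4, the receptor for CXCL12, stood at 10.3 and 15.0 mRNA per cell in the knockout libraries and 4.15, 4.58 and 4.47 in the wild-type libraries. It rose on both scales (rescaled 1.10 ± 0.16, limma adjusted p = 0.00379), although the rescaled call was lost without knockout library 2 (limma adjusted p = 0.0645). Cnr2, the cannabinoid receptor CB2, which helps keep MZB in the marginal zone, stood at 35.2 and 40.2 mRNA per cell in the knockout libraries and 17.98, 25.0 and 23.0 in the wild-type libraries and also rose (rescaled 0.45 ± 0.09, limma adjusted p = 0.0173). That call was lost without either knockout library or wild-type library 1. P2ry13, a receptor for adenosine diphosphate that overlaps Med12l, rose from low levels, 1.01 and 1.08 against 0.224, 0.338 and 0.281 mRNA per cell. A gene this scarce in wild-type MZB may be in the table only through groups where it is higher. The counts of this list are thus no support for it.

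S1pr1 and S1pr3, receptors for sphingosine-1-phosphate, went the other way relative to the other genes. S1pr1, which draws B cells towards blood and lymph, stood at 69.6 and 80.9 mRNA per cell in the knockout libraries and 71.1, 95.8 and 83.6 in the wild-type libraries. Its per-cell values overlapped between the groups (log2 change −0.14 ± 0.21, limma adjusted p = 0.584), and it fell only after rescaling (−0.47 ± 0.07, limma adjusted p = 0.0043). S1pr3, the receptor that is high in MZB, showed the same pattern, with a per-cell change of −0.10 ± 0.19 (limma adjusted p = 0.672) and a rescaled change of −0.42 ± 0.10 (limma adjusted p = 0.0429). Ackr3, a scavenger of CXCL12, fell on both scales, though its per-cell call was lost under 9 of 12 alternatives, and stood at 3.82 and 3.98 mRNA per cell in the knockout libraries and 4.89, 6.45 and 5.85 in the wild-type libraries (rescaled −0.80 ± 0.10, limma adjusted p = 0.00243). Ackr2, a scavenger of inflammatory chemokines, fell after rescaling (−0.60 ± 0.14, limma adjusted p = 0.0347). Without knockout library 2, 0 of these 7 receptors were called, and the adjusted p of Ackr3 was then 0.0515 and that of S1pr1 0.0584.

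The adhesion genes that limma called all rose. Of 27 integrins, selectin ligands, tetraspanins and related genes, 8 rose per cell and 7 after rescaling, beside 13.3% and 3.36% of all genes. There was no lower call on either scale, beside 0.702% and 1.9% of all genes. The rescaled median was 0.07, while voom called 8 higher and 3 lower. Itgam is scarce in wild-type MZB and may be in the table only through groups where it is higher. These counts are therefore no support for the list. Itgb7, the β7 chain of the gut-homing integrin, had the smallest rescaled p of the named genes and stood at 15.0 and 19.9 mRNA per cell in the knockout libraries and 3.78, 5.77 and 4.68 in the wild-type libraries (rescaled 1.48 ± 0.09, limma adjusted p = 4.09e-05). Itgb3, the β3 chain of the vitronectin receptor and of platelets, stood at 2.10 and 2.395 mRNA per cell in the knockout libraries and 0.869, 0.990 and 1.06 in the wild-type libraries (rescaled 0.68 ± 0.09, limma adjusted p = 0.00237). Itgam encodes the αM chain, the CD11b used to exclude cells from the sort. It stood at 1.39 and 1.77 mRNA per cell in the knockout libraries and 0.265, 0.394 and 0.356 in the wild-type libraries. Its reads numbered 146 and 203 in the knockout libraries against 47, 52 and 44. These 3 calls were kept without any one MZB library. The other 4 were Itga6, Icam2, Selplg and Pecam1, with rescaled changes of 0.46 ± 0.11, 0.35 ± 0.09, 0.54 ± 0.13 and 0.35 ± 0.09. Selplg, the ligand of selectins, stood at 4.68 and 6.05 against 2.05, 3.75 and 2.82 mRNA per cell, and Pecam1, which encodes CD31, at 33.9 and 37.3 against 19.2, 26.0 and 21.6 mRNA per cell. These 4 calls were lost without either knockout library, wild-type library 1 or wild-type library 3, and that of Pecam1 then had an adjusted p of up to 0.211 in limma. Cd9, a tetraspanin of MZB, did not pass (rescaled −0.44 ± 0.15, limma adjusted p = 0.114).

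**Figure D3:**
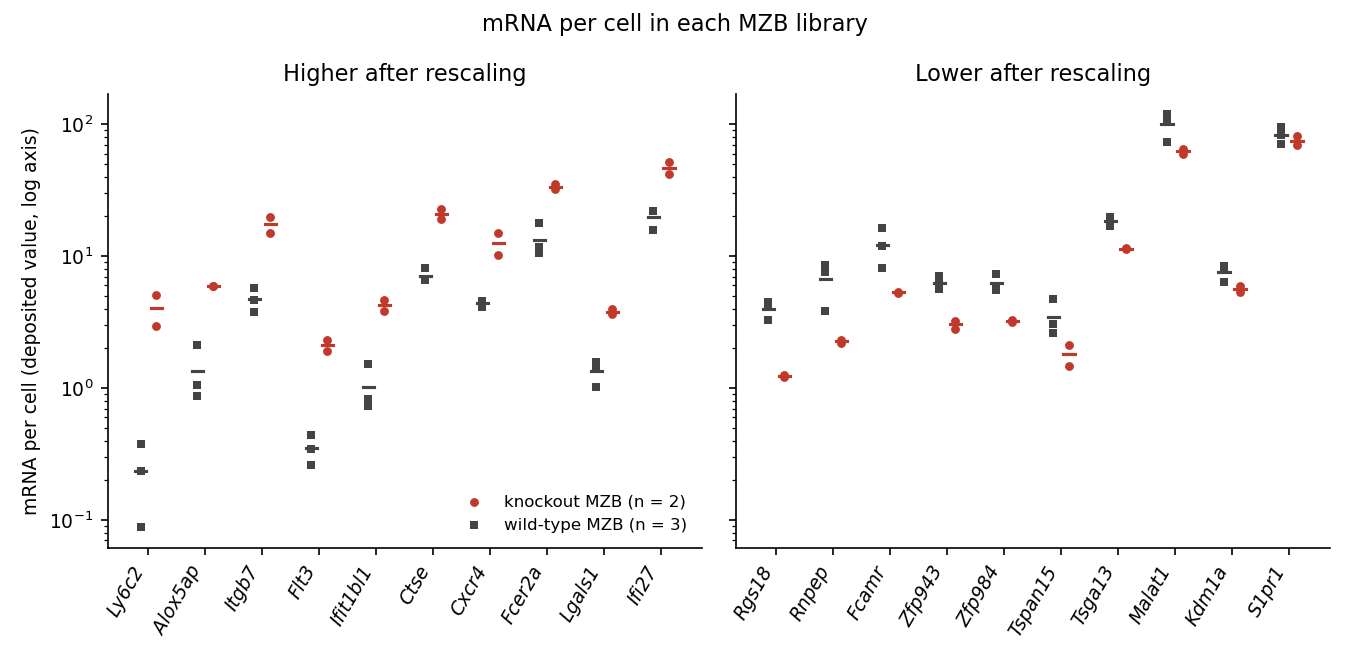
Deposited mRNA per cell (y axis, log scale) of 10 genes that rose and 10 that fell after rescaling (x axis), in each of the 2 knockout (red circles) and 3 wild-type (dark squares) MZB libraries, with short lines at the group means. Among the higher genes all red points lie above all dark ones. Among the lower genes S1pr1 is the exception, whose per-cell values overlap. Most of these genes were named by a rule that required an absence of overlap.

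Of 24 cytokine and interferon receptor chains, 9 rose and 0 fell per cell, beside 13.3% and 0.702% of all genes. After rescaling 6 rose and 1 fell, beside 3.36% and 1.9% of all genes. Their rescaled median was 0.14. Flt3 and Il2ra are scarce in wild-type MZB and may be in the table only through groups where they are higher. The counts and the median are therefore no support for the list. Flt3, the receptor tyrosine kinase of early progenitors and dendritic cells, stood at 1.92 and 2.33 mRNA per cell in the knockout libraries and 0.261, 0.441 and 0.346 in the wild-type libraries and rose by 1.49 ± 0.12 rescaled (limma adjusted p = 0.000206). Il2ra, the α chain of the interleukin 2 receptor, stood at 1.23 and 1.398 mRNA per cell in the knockout libraries and 0.237, 0.363 and 0.387 in the wild-type libraries (1.003 ± 0.13, limma adjusted p = 0.00237), and its partner Il2rb at 3.09 and 3.72 against 1.45, 1.74 and 2.14 mRNA per cell (0.52 ± 0.13, limma adjusted p = 0.0431). Both knockout values of each chain exceeded all 3 wild-type values. Csf2ra, the α chain of the GM-CSF receptor, stood at 10 and 11.6 mRNA per cell in the knockout libraries and 4.30, 5.83 and 5.81 in the wild-type libraries, and Il21r and Il27ra rose by 0.39 ± 0.08 and 0.31 ± 0.06 rescaled. Tgfbr1, a receptor of transforming growth factor β, was the lower member (−0.53 ± 0.11, limma adjusted p = 0.0224), with overlapping per-cell values of 4.14 and 3.93 against 4.08, 5.41 and 5.02 mRNA per cell. The calls of Flt3 and Il2ra were kept without any one MZB library, and those 2 were the calls left without knockout library 2. Of 12 receptors of the TNF family, 3 rose per cell, among them Tnfrsf13c, the BAFF receptor (0.60 ± 0.21, limma adjusted p = 0.044; lost under 8 of 12 alternatives), and 0 of them passed after rescaling by limma, where the smallest adjusted p was 0.0967. Unadjusted, 2 of the 12 had p under 0.05, and voom called 1.

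The receptors that bind antibody were split. Fcer2a, the low-affinity IgE receptor CD23, overlaps Trappc5 and stood at 32.5 and 35.0 mRNA per cell in the knockout libraries and 11.7, 17.7 and 10.5 in the wild-type libraries (rescaled 1.03 ± 0.14, limma adjusted p = 0.00319). The sort took MZB that lacked CD23, and Fcer2a was higher in wild-type FoB. Whether FoB among the sorted cells had a part in its rise was not tested. Fcmr, the IgM receptor, was abundant and stood at 136 and 175 mRNA per cell in the knockout libraries and 76.5, 113 and 91.3 in the wild-type libraries (rescaled 0.41 ± 0.09, limma adjusted p = 0.0226). Fcamr, which binds IgA and IgM, fell and stood at 5.38 and 5.28 mRNA per cell in the knockout libraries and 8.12, 11.99 and 16.3 in the wild-type libraries (rescaled −1.38 ± 0.24, limma adjusted p = 0.00854). These were the 3 members called after rescaling among 8 Fc receptor and Fc receptor-like genes, beside 5.26% of all genes. Only Fcer2a kept its call without any one MZB library, and without knockout library 2 the adjusted p in limma was 0.269 for Fcmr and 0.118 for Fcamr.

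Toll-like receptors were split as well, with 3 of 20 genes higher per cell, beside 13.3% of all genes. After rescaling 2 were higher and 2 lower, beside 3.36% and 1.9%. Tlr2, a receptor for bacterial lipoproteins, rose (rescaled 0.42 ± 0.11, limma adjusted p = 0.0461), as did Irak3, an inhibitor of the pathway, which stood at 8.30 and 8.98 mRNA per cell in the knockout libraries and 4.13, 5.77 and 5.17 in the wild-type libraries. Tlr3, the receptor for double-stranded RNA, and Tlr4, the receptor for lipopolysaccharide, fell relative to the other genes (−0.70 ± 0.13 and −0.55 ± 0.12, limma adjusted p = 0.0131 and 0.032), while neither passed per cell (limma adjusted p = 0.0985 and 0.251). Per cell, Tlr3 stood at 3.91 and 4.23 against 4.78, 5.80 and 5.97 mRNA per cell, without overlap of the groups, and Tlr4 at 2.89 and 2.91 against 2.91, 4.16 and 3.69 mRNA per cell, where the groups touched at their nearest values. All 4 rescaled calls were lost without either one of the knockout libraries.

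Of 6 Ly6 family genes, 3 rose per cell and 2 after rescaling, beside 13.3% and 3.36% of all genes. One of them, Ly6c2, is scarce in wild-type MZB and may be in the table only through groups where it is higher. The counts are thus no support for the list. Ly6c2, an antigen of monocytes and memory lymphocytes, stood at 2.97 and 5.11 mRNA per cell in the knockout libraries and 0.0882, 0.237 and 0.379 in the wild-type libraries, on 40 and 75 reads in the knockout libraries against 2, 4 and 6. It had a rescaled change of 2.52 ± 0.29 (limma adjusted p = 0.0015), which ranged from 1.53 to 3.83 over the alternative analyses. Ly6a, which encodes the stem cell antigen Sca-1 and is induced by interferon, was among the abundant genes that rose, at 169 and 202 mRNA per cell in the knockout libraries and 83.7, 132 and 122 in the wild-type libraries (rescaled 0.41 ± 0.09, limma adjusted p = 0.0328). Its call was lost without either knockout library, and also without wild-type library 1 (limma adjusted p = 0.0878 for the latter).

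Signalling genes downstream of receptors included one of the strongest falls. Rgs18, which shuts off signals from G-protein-coupled receptors, stood at 1.22 and 1.26 mRNA per cell in the knockout libraries and 3.27, 4.49 and 4.25 in the wild-type libraries (rescaled −1.66 ± 0.11, limma adjusted p = 5.8e-05) and was the member called among 6 such regulators on both scales. Rgs10, the next of them, did not pass (−0.65 ± 0.17, 95% interval −1.03 to −0.28, limma adjusted p = 0.0529). Rap1gap, which switches off the integrin activator RAP1, fell on both scales and stood at 4.45 and 4.43 mRNA per cell in the knockout libraries and 5.91, 6.31 and 8.23 in the wild-type libraries (rescaled −0.86 ± 0.14, limma adjusted p = 0.00618). Rasgrp3, an activator of RAS and RAP1 downstream of the B cell receptor, rose and stood at 20.8 and 25.5 mRNA per cell in the knockout libraries and 11.7, 15.5 and 11.8 in the wild-type libraries (rescaled 0.50 ± 0.09, limma adjusted p = 0.0144). Without knockout library 2, Rap1gap (limma adjusted p = 0.105) and Rasgrp3 (limma adjusted p = 0.171) were not called, and Rasgrp3 was also lost without knockout library 1.

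Alox5ap and Pla2g4a, a pair of genes at the start of leukotriene synthesis, rose. Alox5, the gene of 5-lipoxygenase itself, and Ltc4s were not among the genes measured, so no statement on the pathway can be made. Of 18 eicosanoid genes listed, 9 were measured. Among these, 3 were higher per cell and 2 after rescaling, beside 13.3% and 3.36% of all genes, with a rescaled median of 0.18. Pla2g4a is scarce in wild-type MZB and may be in the table only through groups where it is higher. The counts and the median are thus no support for the list. Alox5ap, which presents arachidonic acid to 5-lipoxygenase, stood at 5.99 and 5.94 mRNA per cell in the knockout libraries and 0.869, 1.06 and 2.13 in the wild-type libraries (rescaled 1.63 ± 0.23, limma adjusted p = 0.00367). Pla2g4a, the cytosolic phospholipase that releases arachidonic acid, stood at 1.07 and 1.56 mRNA per cell in the knockout libraries and 0.359, 0.404 and 0.315 in the wild-type libraries (rescaled 0.92 ± 0.18, limma adjusted p = 0.0191). Alox5ap kept its call without any one library, whereas Pla2g4a lost it without either knockout library. It also lost it without wild-type library 2 or 3 (limma adjusted p = 0.0511 and 0.0566).

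Among 39 dual-specificity phosphatase and MAP kinase genes, 11 rose per cell, beside 13.3% of all genes. After rescaling Dusp4, Dusp6, Map3k19 and Mapk11 rose and 0 fell, beside 3.36% and 1.9% of all genes. Map3k19, a kinase of that pathway, stood at 6.78 and 6.74 mRNA per cell in the knockout libraries and 2.82, 2.98 and 2.998 in the wild-type libraries (rescaled 0.79 ± 0.10, limma adjusted p = 0.00199), and Dusp6, which inactivates ERK, at 9.44 and 11.8 mRNA per cell in the knockout libraries and 5.58, 6.43 and 5.88 in the wild-type libraries (0.47 ± 0.10, limma adjusted p = 0.0206). Only Map3k19 kept its call without any one library. Of 28 PI3 kinase genes, 5 rose per cell, beside 13.3% of all genes. After rescaling Pik3cg, the γ catalytic subunit (0.43 ± 0.09), and Pik3ip1, an inhibitor of the kinase (0.34 ± 0.08), rose, while Inpp4a, a lipid phosphatase (−0.57 ± 0.12), and Pik3r4, a regulatory subunit, fell. Of 11 phosphodiesterase and adenylyl cyclase genes, Pde2a rose (0.54 ± 0.12, limma adjusted p = 0.0318) and Pde4d fell (−0.43 ± 0.10, limma adjusted p = 0.0395) after rescaling. Without either one of the knockout libraries, 0 calls were left in these last 2 lists.

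Among 20 members and partners of the CoREST complex, Kdm1a itself was the lower call. Of the rest, 4 rose per cell and 2 after rescaling, beside 13.3% and 3.36% of all genes. As Gfi1 is scarce in wild-type MZB, it may be in the table only through groups where it is higher. The counts are thus no support for the list. Gfi1, the repressor that recruits LSD1, stood at 0.860 and 0.856 mRNA per cell in the knockout libraries and 0.206, 0.263 and 0.327 in the wild-type libraries, on 47 and 51 reads in the knockout libraries against 19, 18 and 21 (rescaled 0.71 ± 0.13, limma adjusted p = 0.0128). Zfp217, a zinc finger protein of CoREST complexes, stood at 9.96 and 11.8 mRNA per cell in the knockout libraries and 5.11, 6.91 and 5.71 in the wild-type libraries (0.53 ± 0.07, limma adjusted p = 0.00319). The call of Gfi1 was lost without either knockout library, without wild-type library 1 and under quantile normalization. That of Zfp217 was lost only without knockout library 2. The other demethylase family, the Jumonji enzymes, had 3 of 21 genes higher per cell and 1 after rescaling, beside the same 13.3% and 3.36%. The latter was Kdm5b, which overlaps Mgat4e (0.35 ± 0.09, limma adjusted p = 0.0481), a call lost without any one of the 5 libraries. Kdm8 did not pass (rescaled 0.32 ± 0.10, 95% interval 0.10 to 0.55, limma adjusted p = 0.0878). Of 18 genes that write, read or remove DNA methylation, 3 rose per cell and 0 passed after rescaling by limma (1 had an unadjusted p under 0.05, and voom called 1). Dnmt1, the maintenance methyltransferase, had a rescaled change of 0.19 ± 0.10 with a 95% interval of −0.02 to 0.41.

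Of 33 genes of early B cell development and progenitors, 16 were in the table. Among those, 9 were higher per cell (beside 13.3% of all genes). After rescaling 6 were higher and 1 lower (beside 3.36% and 1.9%). Their rescaled median was 0.36, against 0.02 for all genes. Some, such as Flt3, Cd93 and Sox4, are scarce in wild-type MZB and may be in the table only through groups where they are higher. The counts and the median are therefore no support for the list. Cd93, a surface protein of immature B cells that was used to exclude cells from the sort, stood at 1.55 and 1.59 mRNA per cell in the knockout libraries and 0.367, 0.558 and 0.427 in the wild-type libraries (rescaled 0.97 ± 0.16, limma adjusted p = 0.00787). Cecr2, a chromatin remodelling factor, stood at 2.96 and 3.21 mRNA per cell in the knockout libraries and 1.13, 1.51 and 1.35 in the wild-type libraries (0.73 ± 0.09, limma adjusted p = 0.00193). Sox4, a transcription factor of early lymphocytes, stood at 0.825 and 0.979 against 0.156, 0.209 and 0.343 mRNA per cell (0.83 ± 0.15, limma adjusted p = 0.0121). The remaining calls were Flt3, Ly6a and Atp1b1, and Bcl11a, a factor of early B cells, which fell after rescaling only. Flt3 and Cecr2 were the calls left without knockout library 2. Of 30 neuronal genes of the kind that LSD1 and REST repress outside the nervous system, 5 were in the table. These 5 are scarce in wild-type MZB and may be in the table only through groups where they are higher, so their count is no support for the list. Per cell 5 were called higher, and after rescaling 3, namely Cort, L1cam and Syt11. Syt11, a synaptotagmin, stood at 1.92 and 2.23 mRNA per cell in the knockout libraries and 0.573, 0.950 and 0.801 in the wild-type libraries (rescaled 0.82 ± 0.13, limma adjusted p = 0.00634). L1cam, a neural adhesion molecule, stood at 0.529 and 0.590 mRNA per cell in the knockout libraries and 0.228, 0.248 and 0.256 in the wild-type libraries (0.39 ± 0.10, limma adjusted p just under the threshold of 0.05), and under quantile normalization its change turned to −0.18. None of the 3 neuronal calls was kept without either knockout library.

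Krüppel-like and Sp factors held 1 call after rescaling among 14 genes, Klf2, a factor of lymphocyte quiescence and trafficking. It stood at 7.63 and 10.4 mRNA per cell in the knockout libraries and 3.48, 5.28 and 4.52 in the wild-type libraries (rescaled 0.65 ± 0.08, limma adjusted p = 0.00247) and kept its call without any one library.

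Zinc finger genes with Zfp symbols made up 15 of the 184 falls after rescaling. Of 243 measured, 22 rose and 9 fell per cell, and 4 rose and 15 fell after rescaling (1.65% and 6.17%, beside 3.36% and 1.9% of all genes). The median of the list was 0.21 per cell and −0.08 after rescaling, so its sign depends on the scale. Many of these genes encode KRAB proteins that silence transposable elements, and they lie in clusters of similar sequence, where reads of near-identical copies can be misassigned. Neighbours on chromosome 17 fell together, Zfp942 (chr17:21926960-21962503), Zfp943 (chr17:21962559-21994366) and Zfp944 (chr17:22337983-22361428). Zfp943 stood at 2.83 and 3.25 mRNA per cell in the knockout libraries and 6.10, 7.01 and 5.65 in the wild-type libraries (rescaled −1.24 ± 0.28, limma adjusted p = 0.0299), Zfp942 at 2.29 and 1.73 against 3.80, 5.09 and 3.54 mRNA per cell (−1.18 ± 0.28, limma adjusted p = 0.0381) and Zfp944 at 3.08 and 2.67 against 4.22, 4.82 and 4.20 mRNA per cell (−0.84 ± 0.22, limma adjusted p = 0.0496). Absence of overlap between the groups was a condition for naming these 3 genes and adds no support. On chromosome 4, Zfp992, Zfp982 and Zfp984 fell as well, between positions 146449030 and 147812229, on the chromosome that also carries Kdm1a. Zfp984 stood at 3.17 and 3.25 mRNA per cell in the knockout libraries and 5.93, 7.35 and 5.54 in the wild-type libraries (rescaled −1.17 ± 0.16, limma adjusted p = 0.00352) and Zfp982 at 1.03 and 0.723 against 1.67, 2.46 and 1.60 mRNA per cell (−1.06 ± 0.16, limma adjusted p = 0.00484). Voom on the recovered reads called 46 Zfp genes lower and 11 higher. Without a single library the rescaled count of lower calls was 2, 0, 2, 2 and 3, in the order of knockout libraries 1 and 2 and wild-type libraries 1 to 3, so the count rests on all of them.

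The largest rises by size were in genes of no common role. Ptprv, a receptor tyrosine phosphatase that overlaps Ptpn7, stood at 9.17 and 9.31 mRNA per cell in the knockout libraries and 2.83, 0.835 and 1.09 in the wild-type libraries (rescaled 2.09 ± 0.48, limma adjusted p = 0.034). Cort, which encodes the neuropeptide cortistatin, stood at 3.70 and 2.74 mRNA per cell in the knockout libraries and 0.142, 0.0953 and 0.102 in the wild-type libraries on 31 and 25 reads in the knockout libraries against 2, 1 and 1, and Cenps, a centromere protein gene beside it, at 3.48 and 3.28 against 0.437, 0.430 and 0.584 mRNA per cell. Ctse, the protease cathepsin E, stood at 19.1 and 22.8 mRNA per cell in the knockout libraries and 8.15, 6.63 and 6.57 in the wild-type libraries (per cell 1.52 ± 0.22, limma adjusted p = 1.63e-07; rescaled 1.18 ± 0.30, limma adjusted p = 0.0453). The rescaled calls of Cort and Ctse were lost without any one of the 5 libraries, those of Ptprv without any but wild-type library 1, and that of Cenps without either knockout library. Their per-cell calls were kept in each of these cases. Ehd2, a membrane-trafficking protein of caveolae, stood at 3.44 and 5.46 mRNA per cell in the knockout libraries and 1.06, 1.82 and 1.16 in the wild-type libraries, Lgals1, the β-galactoside-binding galectin 1, at 3.64 and 3.95 against 1.02, 1.42 and 1.58 mRNA per cell, and Ptms, parathymosin, at 6.18 and 8.17 against 2.05, 2.67 and 3.16 mRNA per cell. Those 3 rose by 1.17 ± 0.16, 0.99 ± 0.13 and 1.02 ± 0.13 rescaled and kept their calls without any one library. Clstn1, a calsyntenin, stood at 2.85 and 3.22 against 0.771, 1.15 and 1.02 mRNA per cell (1.04 ± 0.17, limma adjusted p = 0.00618), and its call was lost without either knockout library. Among abundant genes, Apoe, the lipid carrier, Chst3, a chondroitin sulfotransferase, and Anxa6, a calcium-dependent membrane-binding protein, rose by 0.50 ± 0.09, 0.50 ± 0.08 and 0.48 ± 0.07 rescaled. Apoe stood at 29.8 and 30.6 mRNA per cell in the knockout libraries and 15.3, 19.2 and 16.3 in the wild-type libraries. Apoe lost its call without either knockout library, and Chst3 and Anxa6 lost theirs without knockout library 2.

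Among the falls, Rnpep, an aminopeptidase, stood at 2.33 and 2.20 mRNA per cell in the knockout libraries and 3.84, 8.64 and 7.64 in the wild-type libraries (rescaled −1.62 ± 0.23, limma adjusted p = 0.00395). Tsga13, a testis-enriched gene, stood at 11.6 and 11.2 mRNA per cell in the knockout libraries and 16.97, 18.9 and 19.7 in the wild-type libraries (−0.999 ± 0.11, limma adjusted p = 0.000883) and kept its call without any one library. Tspan15, a tetraspanin that steers the protease ADAM10, stood at 2.13 and 1.47 against 2.64, 4.70 and 3.06 mRNA per cell (−1.06 ± 0.18, limma adjusted p = 0.00849), and Lilrb4a, an inhibitory immunoglobulin-like receptor, at 5.03 and 3.89 against 7.68, 6.61 and 10.4 mRNA per cell (−1.12 ± 0.24, limma adjusted p = 0.0256). AF357399, a small nucleolar RNA whose reads cannot be told from those of its host Rps16 where they overlap, stood at 6.32 and 6.38 against 12.03, 12.1 and 12.9 mRNA per cell. Rps28 and Rpl21, ribosomal protein genes like that host, did not pass (0.20 ± 0.08 and −0.20 ± 0.08 rescaled). The long nuclear RNA Malat1 stood at 65.3 and 59.5 mRNA per cell in the knockout libraries and 106, 119 and 73.9 in the wild-type libraries (rescaled −0.97 ± 0.19, limma adjusted p = 0.0159) and Xist, which coats the inactive X chromosome, at 62.3 and 59.6 mRNA per cell in the knockout libraries and 71.6, 90.7 and 68.0 in the wild-type libraries (−0.65 ± 0.14, limma adjusted p = 0.0304). Xist did not pass per cell (limma adjusted p = 0.22), and its rescaled call was lost without any library but wild-type library 3, while that of Malat1 was lost without knockout library 2 or wild-type library 2. Wild-type library 3 held the lowest wild-type value of both and came nearest to the knockout libraries. Pnrc2, a factor of messenger RNA decay, stood at 22.1 and 25.2 mRNA per cell in the knockout libraries and 26.3, 36.1 and 32.3 in the wild-type libraries (−0.73 ± 0.08, limma adjusted p = 0.0011). Eif5, a translation initiation factor, was also lower (−0.52 ± 0.12, limma adjusted p = 0.0386), a call lost without any one of the 5 libraries. Without knockout library 2 the calls of Rnpep (limma adjusted p = 0.0645), Tspan15, Lilrb4a, Eif5, Malat1 and Xist were lost, and Pnrc2 kept its call.

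Lists of the common machinery of the cell are given beside 13.3% of all genes higher and 0.702% lower per cell. After rescaling the shares of all genes were 3.36% and 1.9%. Of 81 ribosomal protein genes, 0 were called per cell by limma (22 had an unadjusted p under 0.05), and Rpl22l1, a paralogue of Rpl22, was the 1 lower call after rescaling, at 36.9 and 43.7 against 39.7, 58.3 and 48.0 mRNA per cell (−0.58 ± 0.13, limma adjusted p = 0.0251). Their median was 0.43 per cell and 0.10 rescaled, and 74 of the 81 had a positive rescaled change, beside 5216 of all 9690 genes. Of 40 ribosome biogenesis genes, 0 were called per cell (3 had an unadjusted p under 0.05) and 2 fell after rescaling, Gnl3 and Taf1d, nucleolar proteins, with a list median of 0.24 per cell and −0.07 rescaled and 11 of 40 changes positive after rescaling. Of 45 proteasome subunits and chaperones, 2 rose per cell and 1 after rescaling, Psmg3 (median 0.07 rescaled). MHC class II genes (18) and cholesterol genes (26) held 0 calls on either scale by limma and 0 by voom, with rescaled medians of 0.08 and −0.04. Unadjusted p under 0.05 were reached by 7 and 8 of them per cell and by 0 and 2 after rescaling. H2-Oa, a modulator of peptide loading, had a rescaled change of 0.13 ± 0.08 with a 95% interval of −0.05 to 0.30. Of 48 lysosome and proton pump genes, 5 rose per cell and 0 passed after rescaling by limma (8 had an unadjusted p under 0.05), against 2 higher and 2 lower by voom. Of 38 genes of the unfolded protein response, 1 rose per cell and 1, Edem1, fell after rescaling. The rescaled calls of Rpl22l1, Taf1d and Edem1 were lost without any one of the 5 libraries, and those of Gnl3 and Psmg3 without any but wild-type library 3. Of 16 BCL2 family genes, 3 rose per cell and 0 passed after rescaling by limma (3 had an unadjusted p under 0.05), against 1 by voom. Solute carriers followed the background, with 18 of 148 higher per cell, and 4 higher and 1 lower after rescaling. The strongest was Slc66a2, at 1.80 and 2.75 against 0.548, 0.719 and 0.601 mRNA per cell (1.10 ± 0.21, limma adjusted p = 0.0141), lost without knockout library 2 (limma adjusted p = 0.183).

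**Figure D4:**
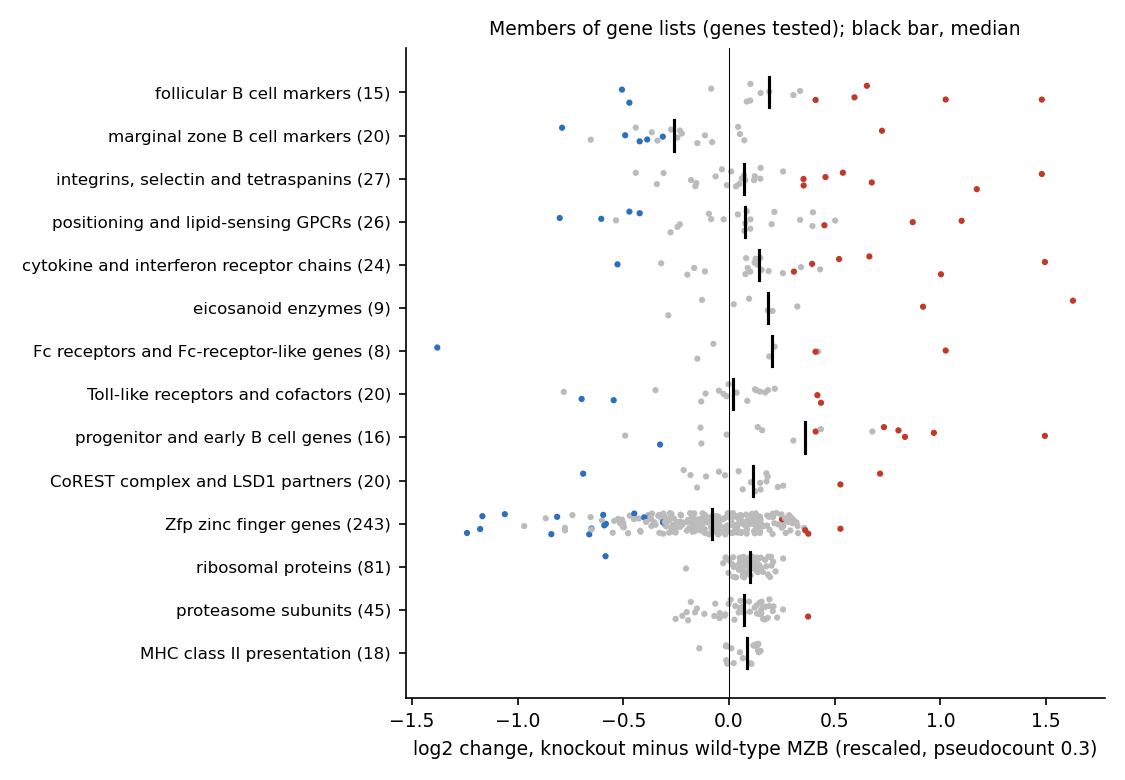
Rescaled log2 change in knockout MZB (x axis) of the members of 14 gene lists (y axis, number of genes tested in parentheses). Red points were called higher and blue points lower, grey points did not pass, and black bars are medians. The median lies furthest to the left for marginal zone B cell markers (−0.26) and furthest to the right for progenitor and early B cell genes (0.36). Of the 33 genes listed for the latter, 16 were measured, and their median is no support for the list. The medians of ribosomal, proteasome and MHC class II genes were 0.10, 0.07 and 0.08.

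Markers of MZB and of FoB had medians on opposite sides of 0 after rescaling, and on the same side per cell. Of 20 marginal zone B cell markers, 1 rose per cell, beside 13.3% of all genes. After rescaling 1 rose and 5 fell, beside 3.36% and 1.9% of all genes. Their median was 0.06 per cell and −0.26 rescaled. Zc3h12c, an endoribonuclease, stood at 5.81 and 5.63 mRNA per cell in the knockout libraries and 7.22, 7.92 and 9.45 in the wild-type libraries (rescaled −0.79 ± 0.14, limma adjusted p = 0.0122). Cr2 stood at 249.98 and 270.1 mRNA per cell in the knockout libraries and 243, 287 and 283 in the wild-type libraries, with overlap of the groups (rescaled −0.39 ± 0.09, limma adjusted p = 0.0306), and Asb2, a ubiquitin ligase subunit induced by NOTCH, at 5.82 and 5.31 against 5.41, 7.01 and 6.84 mRNA per cell (−0.49 ± 0.11, limma adjusted p = 0.032). The other 2 lower markers were S1pr3 and Pik3r4. Ebi3, a subunit of interleukins 27 and 35 whose model overlaps Zfp119b, rose on both scales, at 9.70 and 11.7 mRNA per cell in the knockout libraries and 4.31, 5.03 and 5.66 in the wild-type libraries (0.72 ± 0.13, limma adjusted p = 0.00944). Cd1d1, the marker of the sort, and Dtx1, a NOTCH target, did not pass, with rescaled changes of −0.08 ± 0.11 (95% interval −0.33 to 0.17) and −0.11 ± 0.09 (95% interval −0.31 to 0.09). Of 15 follicular B cell markers, 7 rose and 0 fell per cell, beside 13.3% and 0.702% of all genes. After rescaling 5 rose and 2 fell, beside the same 3.36% and 1.9%. Their median was 0.52 per cell and 0.19 rescaled. The higher ones were Bach2, Fcer2a, Fcmr, Itgb7 and Klf2, and the lower ones S1pr1 and Cd55, an inhibitor of complement. Whether FoB among the sorted MZB had a part in these changes was not tested. Without knockout library 2, 0 of the marginal zone markers were called, and Fcer2a, Itgb7 and Klf2 remained called among the follicular ones.

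Markers of other cell types were mostly missing from the table, and those present moved as follows. Of 15 T cell markers, 2 were in the table, Lck and Cd2, with a summed level of 41.6 to 42.9 mRNA per cell in knockout and 24.8 to 37.1 in wild-type libraries. Lck rose after rescaling (0.54 ± 0.11, limma adjusted p = 0.0188; lost without either knockout library), Cd2 did not pass, and the defining T cell genes Cd3d, Cd3e and Cd3g were not among the genes measured. Of 16 macrophage and monocyte markers 4 were measured, with sums of 8.88 to 11.7 and 3.97 to 6.05, and Itgam and Ly6c2 rose while Ms4a7 did not pass (−0.37 ± 0.14). Of 10 dendritic cell markers 2 were measured, Cst3 and Flt3, which both rose, with sums of 19.5 to 26.4 and 10.6 to 13.9. Of 8 NK cell markers 2 were measured (2.32 to 2.48 against 1.33 to 1.93), Klrd1 and Prf1, and 0 passed after rescaling by limma (1 had an unadjusted p under 0.05, and voom called 1). Itgb3 was the measured one of 13 erythroid and platelet markers (2.10 to 2.395 against 0.869 to 1.06) and Pecam1 that of 10 stromal and endothelial markers (33.9 to 37.3 against 19.2 to 26.0). Of 10 plasma cell markers 5 were measured, and 0 were called by limma or voom and 0 had an unadjusted p under 0.05 after rescaling (147 to 163 against 99.7 to 137), and 0 of 10 neutrophil markers were measured. Whether cells of these types had a part in the changes of Itgam, Ly6c2, Flt3, Itgb3 and Pecam1 was not tested.

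FoB served as the second cell type, from libraries that none of the MZB groups share. Both effects came from 1 fit, however, with 1 estimate of the spread per gene. A gene with a small spread is thus more readily called in both, and shared calls are not independent support. Knockout FoB had 44 genes higher (0.454%) and 13 lower (0.134%) than wild-type FoB after rescaling. Of the 326 genes higher in knockout MZB, 33 were also called higher in knockout FoB, which is 10.1% of the MZB list and 75% of the FoB list. Of the 184 lower ones, 9 were also lower in FoB (4.89% and 69.2%). Whether called or not in FoB, 71.8% of the genes higher in MZB had a positive change in FoB, beside 48.3% of all genes, and 40.8% of those lower in MZB had a negative one, beside 51.7% of all genes. The genes called higher in both cell types included surface molecules and receptors, such as Ly6c2, Flt3, Itgam, Csf2ra and Clec12a. Spn, which encodes the sialomucin CD43, stood at 1.76 and 2.73 mRNA per cell in the knockout libraries and 0.376, 0.536 and 0.485 in the wild-type libraries of MZB. It changed by 1.33 ± 0.13 there and by 0.94 ± 0.13 in FoB (rescaled, limma adjusted p = 0.00052 and 0.00653). Alox5ap changed by 1.63 ± 0.23 and 2.06 ± 0.23. Tgtp2 changed by 0.81 ± 0.12 in MZB and 1.09 ± 0.12 in FoB, Oasl2, an oligoadenylate synthetase-like gene, by 0.93 ± 0.14 and 0.76 ± 0.14, and Ifit1bl1 by 1.45 ± 0.17 and 1.10 ± 0.17. Lower in both were Kdm1a (−0.69 and −1.10), Rgs18 (−1.66 and −1.23), Rnpep (−1.62 and −1.77), Fcamr (−1.38 and −1.91), Fuca1, a lysosomal fucosidase, Ptpn22, a phosphatase of antigen receptor signalling, and 3 long noncoding RNAs.

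The difference between the knockout effects in MZB and FoB was tested for every gene and passed for 30 (0.31%), among them 16 of the genes higher and 11 of those lower in knockout MZB. Genes that were called in opposite directions numbered 3. Ahnak, a giant scaffold protein beneath the membrane, stood at 2.61 and 2.76 mRNA per cell in the knockout libraries and 0.722, 1.05 and 0.895 in the wild-type libraries of MZB, with a rescaled change of 0.99 ± 0.15 (limma adjusted p = 0.005). In FoB it changed by −0.80 ± 0.15 (limma adjusted p = 0.0463), and the difference was 1.79 ± 0.21 (limma adjusted p = 0.0213). Pold1, the catalytic subunit of DNA polymerase δ, changed by 0.34 ± 0.07 in MZB and −0.36 ± 0.07 in FoB (difference 0.70 ± 0.10, limma adjusted p = 0.0219). Mapk11, a p38 kinase, changed by 0.46 ± 0.09 and −0.50 ± 0.09 (difference 0.96 ± 0.12, limma adjusted p = 0.0219). The MZB calls behind these opposite directions were lost without either knockout library for Ahnak (limma adjusted p = 0.0553 and 0.0591), without knockout library 2 for Mapk11 (0.186), and without any library but wild-type library 3 for Pold1.

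Among the genes with a larger change in MZB, Itgb7 changed by 1.48 ± 0.09 in MZB and 0.18 ± 0.09 in FoB, where it did not pass, with a difference of 1.30 ± 0.13 (limma adjusted p = 0.00554) that was called in all 19 alternative analyses. Itgb3, Klf2, Il27ra and Arhgap25, an inhibitor of RAC, followed, with differences of 0.90 ± 0.12, 0.83 ± 0.12, 0.53 ± 0.09 and 0.50 ± 0.09. Genes with a lower effect in MZB than in FoB included Tlr3 (−1.29 ± 0.18), Zfp984 (−1.36 ± 0.23), Zfp982 (−1.50 ± 0.23), Tsga13 (−1.09 ± 0.15) and AF357399 (−1.11 ± 0.15). For Fcer2a the difference of 1.01 ± 0.20 did not pass (limma adjusted p = 0.0684), and the 3 genes of the chromosome 17 cluster had an adjusted p of 0.0727 each. Kdm1a itself fell by 0.69 in MZB and by 1.10 in FoB on the rescaled log2 scale, and the difference of 0.41 ± 0.09 did not pass (limma adjusted p = 0.0727). The number of genes whose effects differed ranged from 1 to 344 when each of the 10 libraries was left out, the lowest without wild-type MZB library 1 and the highest without knockout FoB library 2.

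**Figure D5:**
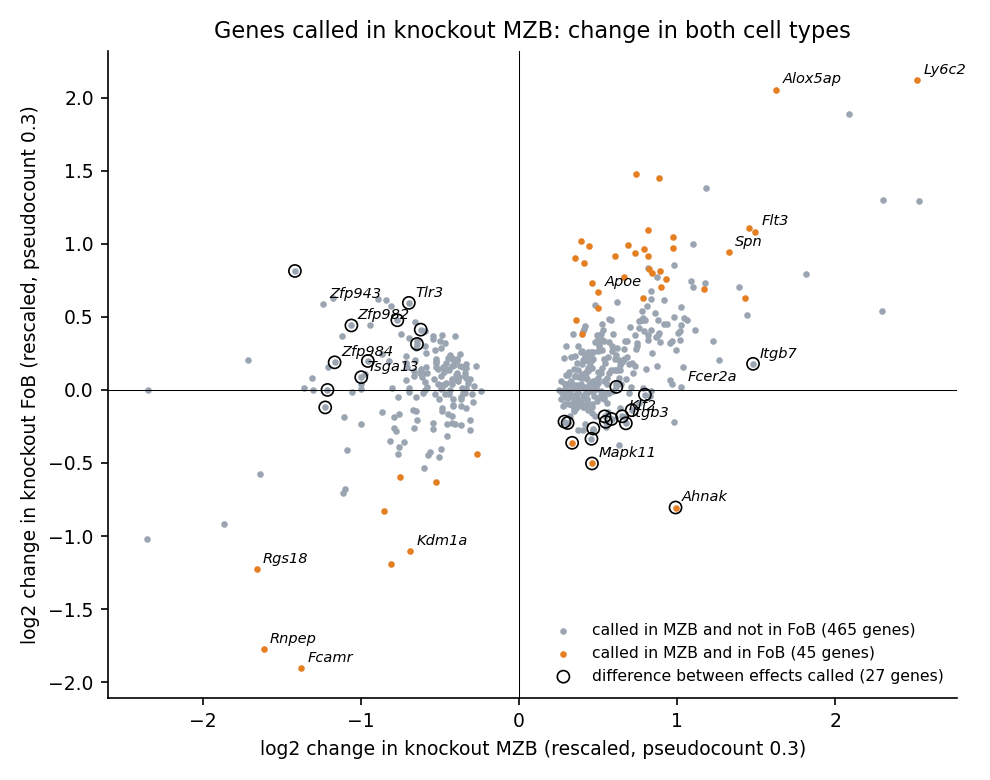
Rescaled log2 change between knockout and wild-type cells in MZB (x axis) and in FoB (y axis) for the 510 genes called in MZB. Orange points (45 genes) were called in FoB as well, grey points (465 genes) were not, and circles mark 27 genes whose 2 effects differed (limma adjusted p under 0.05). Ahnak, Pold1 and Mapk11 are the orange points that lie right of 0 on the MZB axis and below 0 on the FoB axis, and Itgb7 lies near 0 on the FoB axis.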

How the data were processed

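Poly(A) RNA was measured in sorted B cells, grouped by their labels for LSD1 status and cell type. The authors deposited 1 signal value per gene and library, named mRNA per cell in the file. STAR and mm10 are named, per the submitters' processing notes, without versions. The sources used here do not give the counter, the gene filter or how reads became molecules per cell. Of 9690 genes listed by Entrez identifier, 9681 were matched to GRCm38.p6 symbols. The values were whole multiples of 1 read for 100% of genes (largest deviation 2.9e-05 reads, tolerance 0.02), which gave the depths stated and the reads used for voom. 

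Tests used limma 3.58.1 under R 4.3.3 (lmFit, eBayes with trend, two-sided) on log2(value + 0.3) over all 10 libraries with 1 coefficient per group, so that FoB libraries add to the estimate of the spread. Benjamini-Hochberg adjustment ran over all genes, with a threshold of 0.05, and every adjusted p in the text is of this kind. The prior degrees of freedom were 86.9 per cell and 4.97 rescaled. A shift common to all genes of a library enters each per-cell test as if it were independent, so those p-values can be too small. Genes needed 0.3 mRNA per cell in 2 libraries, which removed 0. For rescaling, a factor per library was the trimmed mean of its genes' log-ratios against the average library, with 0.3 of ratios and 0.05 of levels trimmed, giving 1.54 and 1.76 for knockout and 1.13, 1.47 and 1.36 for wild-type MZB. Total mRNA was compared by exact permutation. The fits were tested on simulated data, and tables and plots were made with Python 3.11.15, pandas 2.3.3 and matplotlib 3.10.9.

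The comparison, gene lists, motifs and alternatives were chosen with earlier results of these data known. Named genes were Kdm1a, in each direction the 14 genes with the largest rescaled change among calls without overlap on both scales and at least 3 mRNA per cell in the higher group, the 6 largest of those at 30 or more (fewer where fewer met this), and the 3 lowest p of each list. Predicted genes, clones, microRNA and small nucleolar RNA symbols and pseudogenes were left out of the first parts. Genes of lists or overlaps named beyond that rule, such as Ahnak, Pold1, Spn, Cnr2, Oas1a and Tgtp2, were chosen after their values were seen. Alternatives were other pseudocounts, floors and scalings, quantile normalization, fits on MZB alone, without the trend, with library weights, with voom or with a replicate block, and leaving out each library.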

Additional observations from a re-analysis of the deposited data

Results flagged for a closer look

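For 13 of the named genes the knockout effect in MZB differed from that in FoB by a test of the difference itself (limma on rescaled values, adjusted p under 0.05).

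The effect was higher in MZB for 8 genes. The difference was 1.30 ± 0.13 on the log2 scale for Itgb7, and it was called in 19 of 19 alternative analyses. It was 0.90 ± 0.12 for Itgb3, called in 13, and 0.83 ± 0.12 for Klf2, called in 14. For Ahnak the difference was 1.79 ± 0.21 (called in 15), for Mapk11 0.96 ± 0.12 (14) and for Pold1 0.70 ± 0.10 (13), the 3 genes with opposite calls. Arhgap25 differed by 0.50 ± 0.09 (9 of 19) and Il27ra, whose model overlaps Palm3, by 0.53 ± 0.09 (10 of 19).

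The effect was lower in MZB for 5 genes. Zfp982 differed by −1.50 ± 0.23 and was called in 12 of 18 alternative analyses, and Zfp984, its neighbour on chromosome 4, by −1.36 ± 0.23, called in 11 of 19. Tlr3 differed by −1.29 ± 0.18 (13), Tsga13 by −1.09 ± 0.15 (13) and AF357399 by −1.11 ± 0.15 (14). Why these effects differ was not tested.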

How the results depend on the processing

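The ratio of total mRNA per cell stayed between 1.18 and 1.36 when each library was left out. The count of per-cell calls, 1356, was 2078 with a pseudocount of 1, 528 with the replicate block, 821 with library weights and 272 to 2791 when 1 library was left out, the lowest without knockout MZB library 2 and the highest without wild-type MZB library 2. The count of rescaled calls, 510, was 265 with the replicate block, 1288 with library weights, 907 with the MZB libraries alone, 1090 with voom on the recovered reads and 61 to 266 when 1 library was left out. All 510 genes were among those called with library weights, 493 among those called with voom, 493 with MZB alone and 247 with the block. Higher calls made up 63.9% of the total, but 51.6% with voom, 51.0% with library weights, 47.5% with MZB alone, 54.1% with quantile normalization (727 calls) and 73.6% with the block. The count of genes whose effects differed between the cell types, 30, was 4 with the replicate block, 285 with library weights, 57 with quantile normalization, 595 with voom and 1 to 344 when 1 library was left out. The cause of these shifts was not tested. Where 1 library was left in a group, it was assumed to vary like the others.

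Replicate numbers are shared by the groups, but no label says that they pair the samples. In the MZB groups the deviations of same-numbered libraries correlated at 0.205 and 0.161 across genes, with 2 pairs, so the replicate block is given only here. Of the 112 genes followed and called after rescaling, 25 kept their call in the 14 or 15 alternatives run for each. Most lost it without knockout MZB library 2. L1cam turned from 0.39 to −0.18 under quantile normalization. Depth limits the scarcest genes, since those under 1 mRNA per cell had a median of 53.7 reads in wild-type MZB.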

Other observations

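Some genes that no list held were called in both cell types, and those given here were chosen after their values were seen. Scimp, a transmembrane adaptor of antigen-presenting cells, stood at 2.87 and 2.74 mRNA per cell in the knockout libraries and 0.502, 0.810 and 0.480 in the wild-type libraries (rescaled 1.43 ± 0.12, limma adjusted p = 0.000277; FoB 0.63 ± 0.12). It was far above the wild-type libraries in both knockout MZB libraries, and its call was kept in all 15 alternatives. Clec12a, an inhibitory lectin receptor, changed by 0.73 ± 0.14 in MZB and 0.94 ± 0.14 in FoB, and Mpeg1, the pore-forming protein of phagocytes, by 0.39 ± 0.09 and 1.02 ± 0.09. Cdh17, a cadherin found on B cell subsets, changed by 0.35 ± 0.09 and 0.90 ± 0.09. The MZB call was lost without any one of the 5 libraries for Cdh17, without any but wild-type library 3 for Mpeg1, and without knockout library 1 for Clec12a. Fuca1, which removes fucose in lysosomes, fell in both (−0.53 ± 0.06 and −0.63 ± 0.06), and the difference of 0.10 ± 0.09 did not pass (limma adjusted p = 0.526). It lies at chr4:135920726-135940300, close to Kdm1a at chr4:136550533-136602787. Of the 591 genes of chromosome 4, 7.28% were called after rescaling in MZB, the highest share of any chromosome. An effect of linkage to the altered Kdm1a cannot be told from a response to LSD1 here and was not tested. The same limit holds for every called gene near Kdm1a, including genes named above without a position.

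Many of the named genes lie close together on chromosome 1, in a window chosen after their values were seen whose first and last called genes are Map3k19 (chr1:127813480-127855026) and Rgs18 (chr1:144752683-144775427). Of its 70 genes in the table, 8 were higher and 7 lower after rescaling, or 21.4%, beside 5.95% of the 538 genes of the whole chromosome. The latter share includes the window's own calls. As the window was chosen with the calls known, its high share follows from the choice and is no evidence of clustering. In order along the chromosome they include Map3k19 (higher), Cxcr4 (higher), Cd55 (lower), Fcamr (lower) next to Fcmr (higher), Ctse (higher), Kdm5b (higher), Ptprv (higher), Rnpep (lower), Csrp1 (higher) and Rgs18 (lower). Csrp1, a LIM domain protein, stood at 7.49 and 8.57 mRNA per cell in the knockout libraries and 2.93, 3.81 and 3.69 in the wild-type libraries (rescaled 0.81 ± 0.08, limma adjusted p = 0.000499). Neighbours thus moved in opposite directions, and no test of this clustering was made.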
